A study of Mus musculus with 6 samples.

Results

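A set of genes of triglyceride clearance and fatty acid uptake were followed across the cell types of the mouse lung in normal lung and in lung infiltrated by acute myeloid leukaemia (AML). The genes were chosen by name, with earlier results of these data known. They are 10 of the 32285 features of the count tables: Lpl, Gpihbp1, Angptl4, Cd36, Fabp4, Fabp5, Dgat2, Pnpla2, Cpt1a and Cpt1b. Each library held single cells from enzymatically digested lung, sorted for the non-haematopoietic (niche) cells of the tissue. The 3 Control libraries came from normal lungs. The 3 AML libraries came from lungs with AML of the Trp53 genotype R172H/Δ, and sorted GFP+ leukaemia cells were pooled into them at 20%, with 80% niche cells. The labels give no age, sex or strain, and do not say whether a library is 1 animal or whether the libraries of a group come from separate animals, so p-values measure the spread between these libraries only.

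Triglyceride in the blood travels in lipoprotein particles. Lipoprotein lipase, the product of Lpl, splits it at the luminal surface of capillaries, where GPIHBP1 of the endothelial cell holds the enzyme, and the secreted inhibitor ANGPTL4 inactivates it. The released fatty acids are taken up with the help of the membrane protein CD36 and are bound inside the cell by proteins such as FABP4 and FABP5. They can be stored as triglyceride, with DGAT2 at the last step of synthesis and the lipase ATGL, the product of Pnpla2, at the first step of release. For oxidation they enter mitochondria through carnitine palmitoyltransferase I, whose liver form is Cpt1a and muscle form Cpt1b. In the lung, type 2 cells use fatty acids to make surfactant lipids.

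The libraries held 2234 to 6722 cell barcodes and 19060359 to 46018541 unique molecular identifiers (UMIs, 1 for each captured transcript molecule). After filters, 23745 cells were used, 1718 to 5790 a library, and any pair of libraries shared at most 24 barcodes. Cells fell into 29 clusters, named from marker genes with the 10 genes kept out of the clustering, and 3 clusters stayed unnamed. These 3 held 14.4% to 36.3% of Control cells and at most 1.94% of AML cells. Cells with haematopoietic markers made up 4.66% to 8.57% of each Control library and 19.1% to 28.1% of each AML library. A class named as platelets was 43, 141 and 160 of the 80, 291 and 295 such cells in Control 1, 2 and 3. In those libraries 97.5% to 100% of the platelet class held a UMI of the endothelial genes Pecam1, Cdh5, Cldn5 and Egfl7. All libraries were sorted for non-haematopoietic cells, and the AML libraries had leukaemia cells pooled into them at 20%. In AML libraries most cells with haematopoietic markers lay in 3 clusters with erythroid markers, which held at most 9 cells of a Control library. These clusters made up 13.4%, 24.6% and 18.9% of AML 1, 2 and 3. Whether they are the pooled leukaemia cells was not tested. In all, 9 classes had at least 20 cells in every library and were compared. Control cells were deeper than AML cells in all 9, with medians of 4598 against 3348 UMIs a cell in general capillary cells, and the part of this depth difference in the results was not tested. Cell Ranger made the counts on mm10, and no batch was named in the labels. Levels are in CPM, the UMIs of a gene for every 1000000 UMIs of its class in a library. They are compared between classes and libraries for 1 gene at a time.

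**Figure D1:**
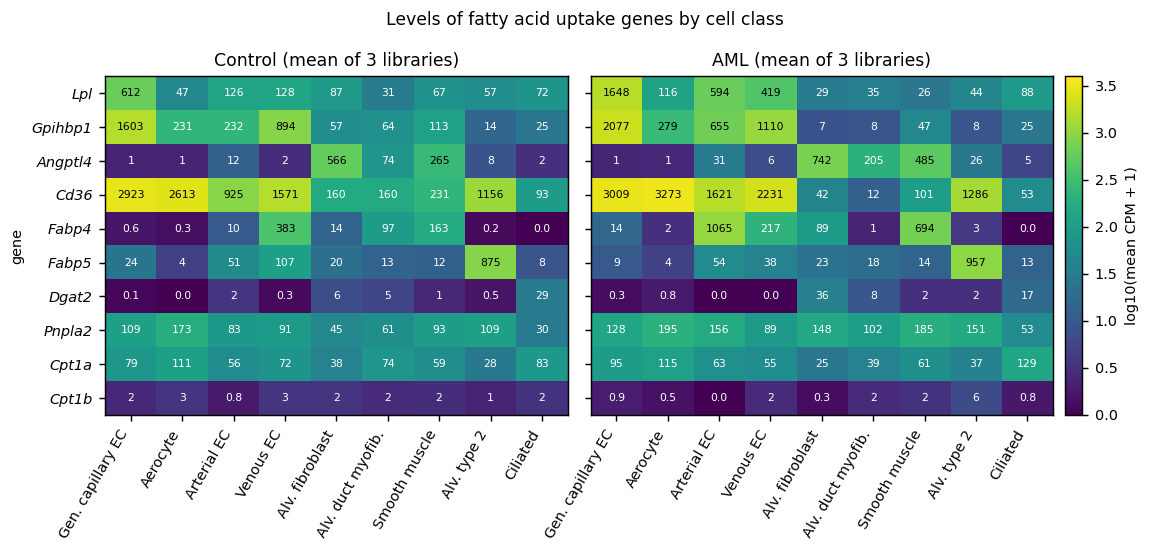
Mean level of each gene (rows) in each tested cell class (columns), Control at left and AML at right, as the mean CPM of 3 libraries, with colour on a log10 scale of CPM plus 1. Lpl was highest in general capillary endothelial cells (EC) in both groups, Angptl4 in alveolar fibroblasts, and Fabp5 in alveolar type 2 cells.

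Of 90 pairs of a gene and a class, 58 had enough UMIs for a test and 32 did not. Of the 58, 12 passed at an adjusted p below 0.05 in edgeR, 11 higher and 1 lower in AML. Of the 11, Fabp4 in arterial cells, Dgat2 in alveolar fibroblasts and Cpt1b in alveolar type 2 cells reached the low-count filter in the AML libraries alone, so these 3 could be tested only because they were high there, and they are no support for a direction. In all, 7 genes passed in at least 1 class. Cd36, Fabp5 and Cpt1a passed in none, although each had an unadjusted p below 0.05 in 2 classes. DESeq2 called Fabp5 in general capillary and venous cells and the other 2 genes in none. In arterial endothelial cells 3 of the 8 genes tested passed, all higher, with Fabp4 among them. Of all 5711 genes there, 0.385% passed in either direction and 0.21% were higher. In alveolar fibroblasts 3 of 6 passed, with Dgat2 among them, against 3.74% of all genes. In alveolar type 2 cells 2 of 8 passed, with Cpt1b among them, against 4.37%. These counts thus include the 3 pairs that reached the filter in the AML libraries alone. The genes were also chosen with earlier results of these data known. Counts above the share of all genes, here and below, are thus no support for the set. One gene passed in general capillary cells (of 8, against 2.04% of all genes), in aerocytes (of 5, against 3.25%), in alveolar duct myofibroblasts (of 3, against 1.42%) and in smooth muscle (of 7, against 0.318%). None of 7 passed in edgeR in venous cells, where 0.441% of all genes did. Of the 7, 3 had an unadjusted p below 0.05, as 11.9% of all genes had, and DESeq2 called 2. None of 6 passed in ciliated cells, where 0.616% of all genes did. Of the 6, 2 had an unadjusted p below 0.05, as 9.19% of all genes had, and DESeq2 called none.

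**Figure D2:**
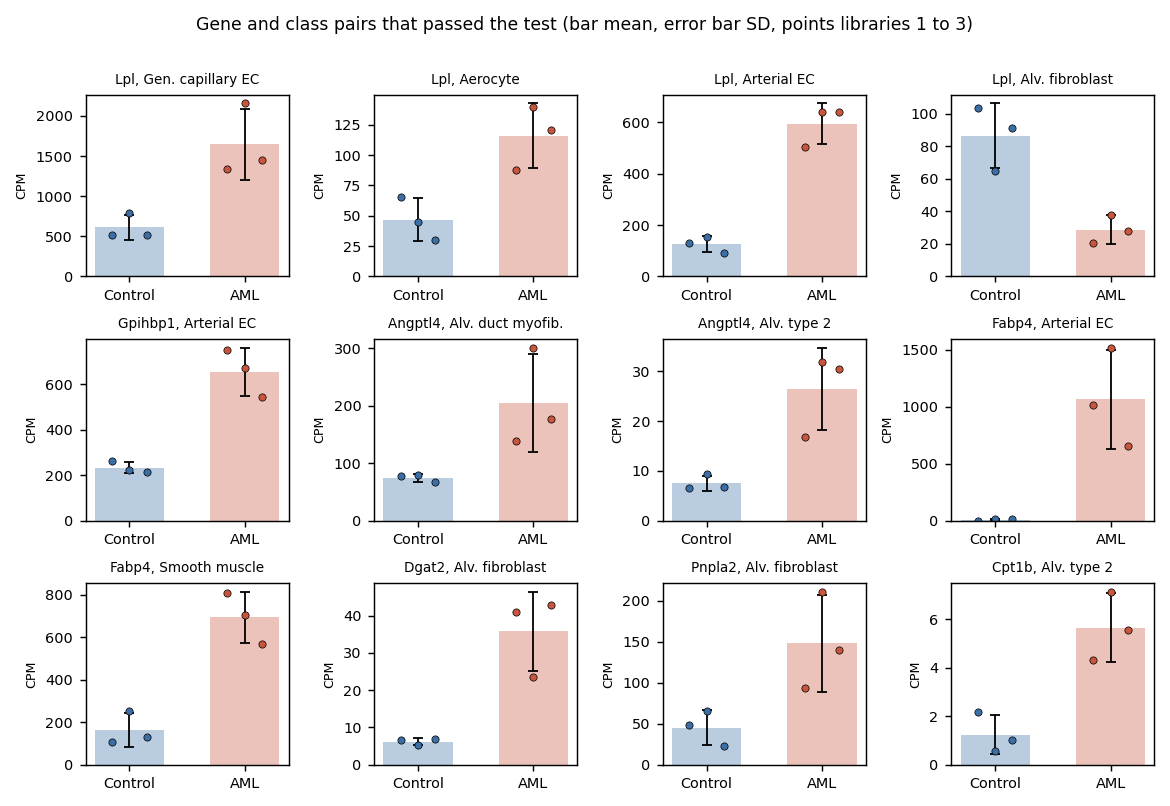
CPM of the 12 pairs of gene and class that passed the edgeR test, 1 panel each with its own axis from 0, with bars for the mean of 3 libraries, error bars for the SD and points for libraries 1 to 3 from left to right. In every panel the Control and AML points are apart, and Lpl in alveolar fibroblasts is the one pair that is lower in AML.

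Lpl passed as higher in 3 of the 4 endothelial classes tested, and in the other, venous cells, the call depended on the setting. In general capillary cells, the main class of gas-exchange capillary, the levels of Control 1, 2 and 3 were 522, 791 and 523 CPM, against 1335, 2156 and 1454 CPM in AML 1, 2 and 3. Every AML library was above every Control library, and AML 2 was the highest. The means were 612 ± 155 and 1648 ± 444 CPM (SD, n = 3), a log2 change of 1.45 ± 0.28 (SE, edgeR adjusted p = 0.0348). Control levels in the other 8 tested classes were lower than this. Venous cells at 128 ± 63.2 CPM and arterial cells at 126 ± 31.1 CPM did not differ beyond their spread, and alveolar fibroblasts (86.6 ± 19.7 CPM), ciliated cells (71.8 ± 7.85 CPM) and alveolar type 2 cells (57.1 ± 2.53 CPM) followed.

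The rise in capillary cells was spread over many cells. No single cell held more than 2.7% of the Lpl UMIs of a library. With each cell thinned to 1500 UMIs, Lpl was found in 44.7% to 57.8% of Control cells and 73.0% to 84.1% of AML cells, and unthinned in 66.8% to 77.5% and 83.0% to 91.3%. In T or NK lymphocytes, which should lack it, the thinned share was at most 3.03% (median depths of 5696 UMIs in Control and 3553 in AML). The call did not hold without Control 1 (adjusted p = 0.171), Control 3 (0.126), AML 2 (0.0733) or AML 3 (0.132), at log2 changes from 1.18 to 1.55.

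The general capillary class joined clusters 3, 4, 5, 6 and 7, and the groups filled them differently. Cluster 6 was the largest in each Control library and in AML 1, with 37.2% to 45.0% of the class. Cluster 5 held 86.1% of the class in AML 2, and cluster 7 held 52.6% in AML 3. Within the clusters that could be compared the difference in Lpl had the same direction. Cluster 5 could not be, with 3, 11 and 8 cells in Control 1, 2 and 3. Cluster 3 had enough AML cells in AML 1 alone. In cluster 4, which alone had at least 20 cells in every library, Lpl was at 629, 915 and 591 CPM in Control and 1420.03, 1540.1 and 1408 CPM in AML. Tested in that cluster alone, Lpl had a log2 change of 1.01 (adjusted p = 0.0165). In cluster 6 the 3 Control libraries lay between 394 and 670 CPM, and AML 1 and AML 3 at 1207 and 987 CPM. The unnamed cluster 2, which was led by Esm1, had 773 to 1305 CPM in Control and 1933 to 2246 CPM in the 2 AML libraries with enough cells.

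**Figure D3:**
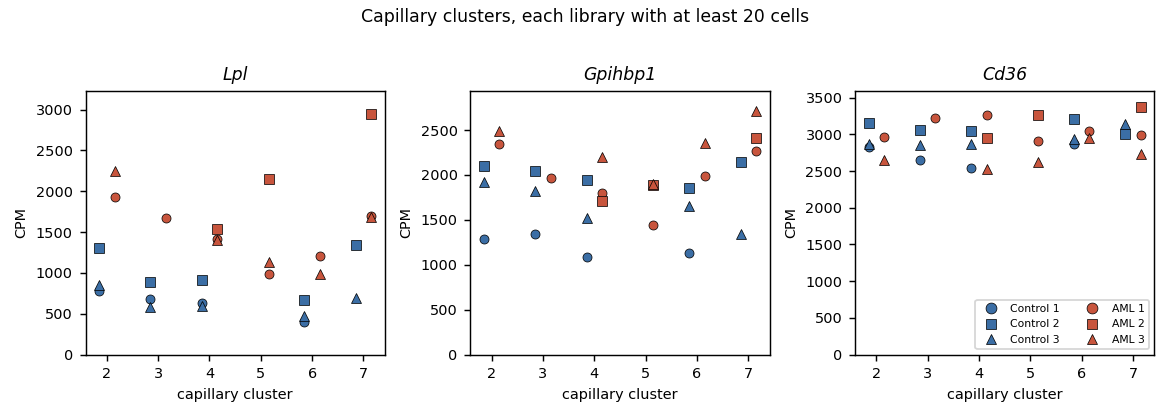
CPM of Lpl, Gpihbp1 and Cd36 in the capillary clusters, with 1 point for each library that has at least 20 cells in the cluster (blue for Control, red for AML, marker shape for the library number). For Lpl the AML points lie above the Control points in clusters 2, 3, 4, 6 and 7, while for Cd36 the 2 groups overlap in clusters 2, 4, 6 and 7.

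In arterial endothelial cells Lpl was at 131, 154 and 92.7 CPM in Control and 504, 638 and 641 CPM in AML, so that the groups were far apart. The means were 126 ± 31.1 and 594 ± 78.1 CPM, with a log2 change of 2.25 ± 0.26 (adjusted p = 0.0003081). This call held in every alternative run, leaving out any 1 library included, at adjusted p up to 0.006432. Aerocytes, the other capillary cell type of the alveolus, had lower levels, at 65.6, 44.9 and 29.96 CPM in Control and 87.5, 140.0 and 121 CPM in AML. The groups did not overlap, and the log2 change was 1.35 ± 0.26 (adjusted p = 0.0102), but it lost the call without AML 2 (0.0963) or AML 3 (0.0796). In venous cells Lpl was at 92.0, 201 and 90.9 CPM in Control and 377, 583 and 297 CPM in AML. Those groups were apart too, by a log2 value of 1.76 ± 0.37, yet the adjusted p was 0.0713, and it fell to 0.0378 without Control 2 and 0.0302 without AML 1. It was also below 0.05 in DESeq2 (adjusted p = 0.0003398), without the low-count filter (1.561e-08) and with equal cells per library (0.015), while leaving out Control 1 gave 0.404.

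The change in Lpl was compared between classes by the interaction of class and group, with library as a factor. Of 63 such pairs of gene and class, 10 passed in 5 classes. None passed in aerocytes, duct myofibroblasts or smooth muscle, where 1.68%, 0.969% and 0.195% of all genes did. Relative to general capillary cells, the change was larger in arterial cells by 0.84 ± 0.20 on the log2 scale (adjusted p = 0.0238), where 1.34% of all genes had an interaction below the threshold. It was smaller in alveolar type 2 cells, by -1.67 ± 0.25 (adjusted p = 0.009825, 2.64% of all genes), and in ciliated cells, by -1.17 ± 0.28 (adjusted p = 0.0196, 0.978% of all genes). In type 2 cells Lpl was at 54.6, 57.1 and 59.6 CPM in Control and 51.5, 44.3 and 36.1 CPM in AML, apart but not called (log2 -0.25, adjusted p = 0.439). The arterial difference lost its call without Control 2, Control 3 or AML 3 (adjusted p = 0.155, 0.184 and 0.28). The type 2 difference lost it without Control 1 (0.0784) or AML 3 (0.0792), and the ciliated one without Control 1 (0.161), Control 3 (0.195), AML 2 (0.0528) or AML 3 (0.216).

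Alveolar fibroblasts, the stromal cells of the alveolar wall, were the 1 class in which Lpl was called lower. The log2 change was also below 0, but not called, in smooth muscle (-1.35) and type 2 cells (-0.25). In alveolar fibroblasts Lpl was at 104, 65.0 and 91.2 CPM in Control and 20.5, 38.1 and 27.9 CPM in AML, with no overlap. The means were 86.6 ± 19.7 and 28.8 ± 8.82 CPM, and the log2 change was -1.49 ± 0.29 (adjusted p = 0.006818). The change differed from that in general capillary cells by -3.00 ± 0.31 on the log2 scale (adjusted p = 5.665e-06, where 2.3% of all genes passed). Few UMIs lay behind these levels, 47, 25 and 40 in Control and 9, 42 and 28 in AML. In Control 1, 34 of the 47 UMIs came from 1 cell, and without the cell with most Lpl UMIs in each library the log2 change was -0.92 (adjusted p = 0.221).

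Endothelial RNA moved with this result. The UMIs of Lpl per UMI of Gpihbp1 in alveolar fibroblasts were 0.959, 3.12 and 2.22 in Control and 4.5, 3.82 and 4 in AML, above the general capillary ratios of the same group in every library. The summed level of 4 endothelial genes (Pecam1, Cdh5, Cldn5 and Egfl7) in alveolar fibroblasts was 681, 96.2 and 342 CPM in Control and 41.0, 71.6 and 44.8 CPM in AML. A sum of mesenchymal (stromal) genes in this class was 4279, 3617 and 3545 CPM in Control and 1129, 622 and 1770 CPM in AML. What part this difference of the class has in the change of any gene there was not tested. Gpihbp1, which marks capillary cells, had 56.6 ± 45.6 CPM there in Control and 7.16 ± 2.71 CPM in AML. With the cells that held a UMI of those 4 genes left out, the log2 change of Lpl was -1.05 (adjusted p = 0.165). With doublets kept it was 0.37 (adjusted p = 0.712), and at a clustering resolution of 0.5 it was -0.83 (adjusted p = 0.162). Whether endothelial RNA has a part in the levels was not tested further. In smooth muscle, where the same 4 genes summed to 292, 965 and 724 CPM in Control and 562, 403 and 27.4 CPM in AML, Lpl had 66.6 ± 50.02 CPM in Control and 25.7 ± 21.5 CPM in AML and was not called (adjusted p = 0.671).

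Gpihbp1, which holds lipoprotein lipase at the capillary wall, was highest among the tested classes in general capillary cells, at 1191, 1935 and 1683 CPM in Control and 1956, 1894 and 2380.2 CPM in AML. The groups overlapped, with AML 2 below Control 2, and the log2 change was 0.39 ± 0.24 (adjusted p = 0.386). Of the tested classes, venous cells came next (894 ± 266 CPM in Control and 1110.3 ± 243 CPM in AML, adjusted p = 0.647). Aerocytes were lower, at 231 ± 46.9 and 279 ± 96.9 CPM (adjusted p = 0.578). The UMIs of Lpl per UMI of Gpihbp1 in general capillary cells were 0.438, 0.409 and 0.311 in Control and 0.682, 1.14 and 0.611 in AML, with every AML library above every Control library.

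In arterial cells Gpihbp1 rose with Lpl. It was at 260, 223 and 213 CPM in Control and 752, 670 and 543 CPM in AML. No AML library overlapped with Control, the log2 change was 1.52 ± 0.24 (adjusted p = 0.007041), and it kept its call without any 1 library (adjusted p up to 0.0467). At a resolution of 0.5 it was 1.08 (adjusted p = 0.0835). The arterial change exceeded that in general capillary cells by 1.12 ± 0.23 (adjusted p = 0.0116), a call lost without Control 2, Control 3 or AML 2 (0.0785, 0.0781 and 0.207). Markers of general capillary cells summed to 2409 CPM in Control arterial cells and to 2363 CPM in the 235 AML arterial cells that had fewer than 10 UMIs of Fabp4. Arterial markers summed to 2176 and 1594 CPM in those same cells, and venous markers to 2484 and 2821 CPM. Gpihbp1 was at 231 and 593 CPM in them. Whether the make-up of the class has a part in its rise was not tested.

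Angptl4, the secreted inhibitor of lipoprotein lipase, was mainly a stromal transcript. Alveolar fibroblasts had 569, 697 and 431 CPM in Control and 803, 790.1 and 633 CPM in AML, overlapping groups with a log2 difference of 0.40 (adjusted p = 0.476). Smooth muscle had 265 ± 115 and 485 ± 194 CPM (adjusted p = 0.409). It rose in alveolar duct myofibroblasts, the contractile cells of the duct walls, which had 76.8, 79.3 and 66.7 CPM in Control and 138, 301 and 176 CPM in AML. All 3 AML libraries were above Control, AML 2 by most, and the log2 change was 1.504 ± 0.34 (adjusted p = 0.0287). Without AML 2 the log2 change was 1.14 (adjusted p = 0.182), without Control 3 1.46 (0.0761), and the 13 to 59 UMIs a library limit it.

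Angptl4 also rose in alveolar type 2 cells, from a low level. It was at 6.46, 9.29 and 6.77 CPM in Control and 16.8, 31.9 and 30.5 CPM in AML. The groups were apart, and the log2 change of 1.93 ± 0.27 (adjusted p = 0.0007552) kept its call without any 1 library (adjusted p up to 0.0267). These levels rested on 18 to 33 UMIs a library in Control and 51 to 127 in AML, with at most 8 in a cell. The share of type 2 cells with an Angptl4 UMI was 10.0% to 13.5% in Control and 16.5% to 26.2% in AML, although AML cells were shallower (median 12729 against 20040.0 UMIs). Thinned to 1500 UMIs a cell, the shares were 0% to 1.78% and 2.24% to 6.40%. In general capillary cells, which held almost no Angptl4, the unthinned share was 0.267% to 1.27% in Control and 0.215% to 0.618% in AML.

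Cd36, the fatty acid translocase of the cell membrane, was high in the capillaries and did not pass in any class under the main settings. General capillary cells had 2737 to 3130.1 CPM in Control and 2687 to 3255 CPM in AML, fully overlapping, with a log2 difference of 0.06 ± 0.21. In 3 endothelial classes the AML libraries were all above Control. In aerocytes the levels were 2613 ± 209 and 3273 ± 539 CPM (adjusted p = 0.418), in arterial cells 925 ± 327 and 1621 ± 187 CPM (adjusted p = 0.236), and in venous cells 1571 ± 192 and 2231 ± 147 CPM (adjusted p = 0.357). Such separation was common, since 22.9%, 17.9% and 19% of all genes had non-overlapping groups in these classes. Without Control 1, which had the highest arterial Control level, the arterial change was 1.13 (adjusted p = 0.0233).

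The change in Cd36 did differ from that in general capillary cells in arterial cells (0.83 ± 0.20, adjusted p = 0.0307) and in venous cells (0.52 ± 0.11, adjusted p = 0.0158, where 0.589% of all genes passed). The arterial difference did not pass on leaving out Control 2 or 3 or AML 2 or 3 (adjusted p from 0.244 to 0.326), and the venous one without Control 1, 2 or 3 or AML 3 (0.0543 to 0.281). Outside the endothelium, type 2 cells held Cd36 at 1156 ± 134 CPM in Control and 1286 ± 84.2 CPM in AML (adjusted p = 0.455). Alveolar fibroblasts had 317, 31.2 and 132 CPM in Control and 11.4, 68.0 and 45.8 CPM in AML, overlapping (log2 -1.77, adjusted p = 0.447, but -2.69 and 0.006303 with cells of at most 10% mitochondrial UMIs), beside the endothelial genes given with Lpl. In ciliated cells the adjusted p fell from 0.887 to 0.0102 without AML 1.

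**Figure D4:**
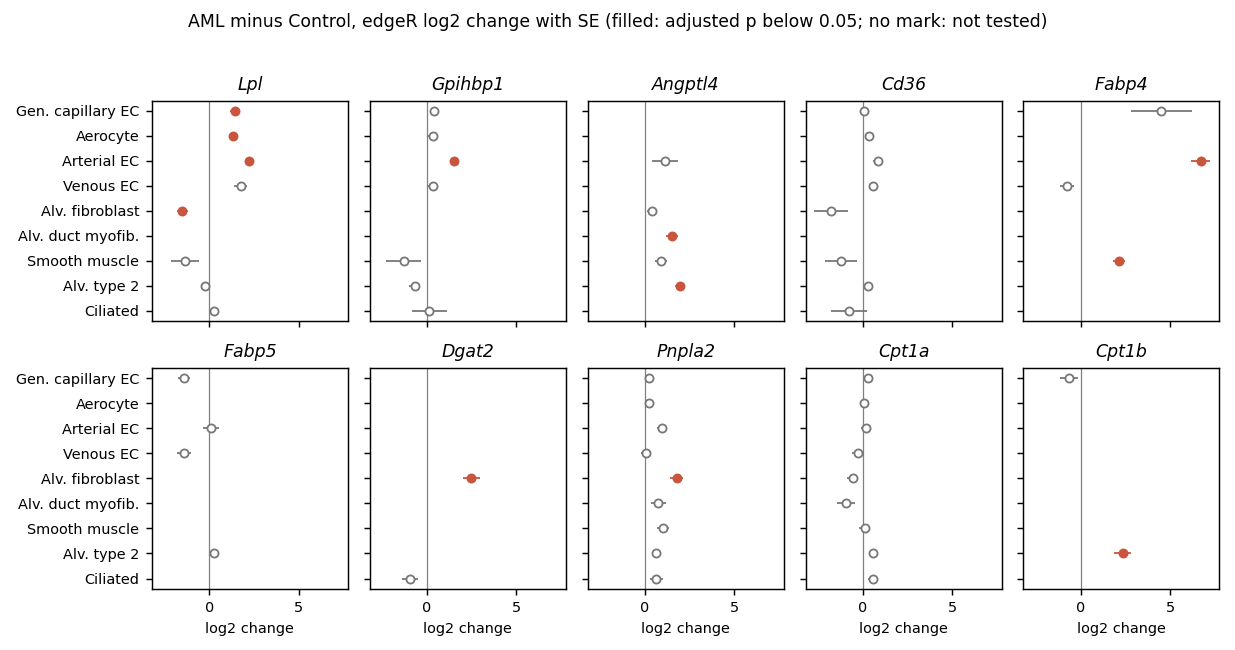
Log2 change of each gene in each class, AML minus Control from edgeR, with bars for the SE, filled circles for an adjusted p below 0.05 and no mark where too few UMIs were counted. Lpl lies above 0 in the 4 endothelial classes and in ciliated cells. It lies below 0 in alveolar fibroblasts (filled) and in smooth muscle and alveolar type 2 cells (both open). Cd36 has no filled circle.

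Fabp4, a cytoplasmic fatty acid binding protein of endothelium and adipocytes, was a transcript of few cells. In arterial cells it was at 0, 14.03 and 15.04 CPM in the Control libraries (3 counts would be 7.15 CPM in Control 1) and at 1019.6, 1519.6 and 656 CPM in AML. It reached the low-count filter in the AML libraries alone, and the groups were far apart, with a log2 change of 6.72 ± 0.55 (adjusted p = 4.687e-05). Yet the UMIs came from 9 of 70 cells in AML 1, 2 of 86 in AML 2 and 8 of 88 in AML 3. In AML 2, 1 cell held 695 of the 696 UMIs. The 9 cells with at least 10 UMIs each, 5, 1 and 3 in the AML libraries and none in Control, held 94.9%, 99.9% and 90.8% of the total. With these cells left out the levels were 0, 14.03 and 15.04 CPM in Control and 55.0, 2.22 and 63.7 CPM in AML, which overlap. Without the cell with most Fabp4 UMIs in each library the gene had too few UMIs to be tested.

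Those 9 cells differed from the other 235 arterial cells of the AML libraries in other genes as well, as a description, since they were picked by Fabp4 after its values were seen. Their summed arterial markers were at 1437 CPM against 1594 CPM in the others. Their venous markers were at 786 against 2821 CPM and their general capillary markers at 831 against 2363 CPM. Cd36 was at 5974 against 1470.5 CPM and Gpihbp1 at 2156 against 593 CPM in them, while Lpl was at 539 against 603 CPM. In the 143 Control arterial cells general capillary markers summed to 2409 CPM.

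**Figure D5:**
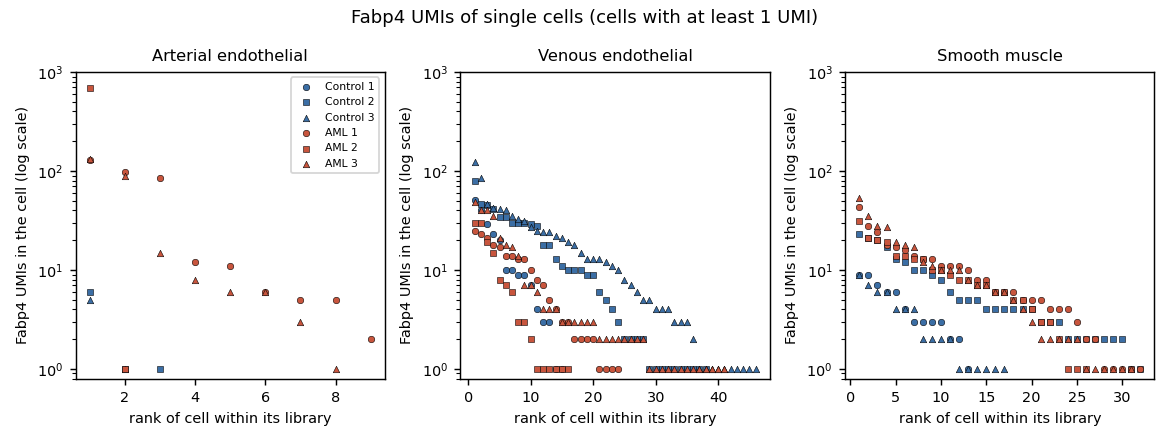
Fabp4 UMIs of single cells (log axis) against the rank of the cell within its library, for cells with at least 1 UMI in arterial, venous and smooth muscle cells (blue for Control, red for AML, marker shape for the library number). A single arterial cell of AML 2 holds 695 UMIs, while in smooth muscle the UMIs are spread over 24.5% to 50.8% of the AML cells.

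Smooth muscle showed a broader rise in Fabp4. It was at 106, 254 and 130.3 CPM in Control and 809, 705 and 570.1 CPM in AML. All AML libraries were above Control, with a log2 change of 2.14 ± 0.32 (adjusted p = 0.008876), which became 0.0548 without Control 3. The share of cells with a UMI was 31.0% to 34.4% in Control (median 7763 UMIs) and 24.5% to 50.8% in AML (median 3507 UMIs), and, thinned to 1500 UMIs, 9.43% to 21.6% and 18.4% to 40.0%. Cells with at least 10 UMIs numbered 8 in Control, all in Control 2, and 35 in AML. Without them the levels were 106, 121 and 130.3 CPM in Control and 276, 264 and 164 CPM in AML, still apart. Smooth muscle markers were present in such cells: the 35 AML cells with at least 10 Fabp4 UMIs summed to 50931 CPM, and the other 231 to 37288 CPM. Ciliated cells, which should lack Fabp4, had no UMI in any library.

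In venous cells, where Fabp4 was highest among Control endothelium, it was at 167, 391 and 591 CPM in Control and 170.1, 239 and 242 CPM in AML, with overlap (log2 -0.78, adjusted p = 0.486). General capillary cells had 0.545 to 0.723 CPM in Control. AML 2 reached 38.9 CPM there, from 346 UMIs in 21 of 2146 cells, while AML 1 and AML 3 were at 1.74 and 2.62 CPM. The 3 AML values lay above Control, but the change was not called (log2 4.51 ± 1.70, adjusted p = 0.22). Fabp4 reached the low-count filter in this class in the AML libraries alone, so these values are no support for a direction.

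Fabp5, the epidermal type fatty acid binding protein, was a type 2 cell transcript, at 641, 938 and 1045 CPM in Control and 872, 989 and 1011 CPM in AML. The groups overlapped (log2 0.25, adjusted p = 0.598). In the endothelium it was low and not called. General capillary cells had 15.8, 25.3 and 31.1 CPM in Control and 14.8, 6.08 and 6.78 CPM in AML, just apart, with AML 1 close to Control 1 (log2 -1.39 ± 0.34, adjusted p = 0.0635). The adjusted p was 0.003984 without AML 1 and 0.00477 in DESeq2. Venous cells had 81.3, 69.2 and 172 CPM in Control and 44.5, 20.4 and 48.7 CPM in AML (log2 -1.40 ± 0.37, adjusted p = 0.138). In arterial cells the levels were 50.7 ± 35.5 and 53.7 ± 16.5 CPM, and the difference of that change from the one in general capillary cells was 1.60 ± 0.38 (adjusted p = 0.0204). It lost its call without Control 2, AML 2 or AML 3 (0.0735, 0.306 and 0.0749).

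Among the storage genes, Dgat2 and Pnpla2 passed in alveolar fibroblasts. Dgat2 reached the low-count filter there in the AML libraries alone, so its call is no support for a direction. Dgat2, the enzyme of the last step of triglyceride synthesis, was at 6.61, 5.20 and 6.84 CPM in Control and 41.0, 23.6 and 42.8 CPM in AML. The groups were apart, with a log2 change of 2.47 ± 0.48 (adjusted p = 0.00622), which became 0.056 without AML 3. It was counted from 2 to 3 UMIs a library in Control and 18 to 43 in AML, with at most 3 UMIs in a cell, and had too few UMIs for a test without the top cell of each library. Ciliated cells, the other class with enough UMIs, had 29.5 ± 6.81 and 16.8 ± 9.06 CPM (adjusted p = 0.502).

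Pnpla2, the lipase that starts the release of fatty acids from stored triglyceride, was found in all 9 classes. In alveolar fibroblasts it was at 48.5, 65.0 and 22.8 CPM in Control and 93.3, 211 and 140.4 CPM in AML. The groups were apart, and the log2 change was 1.78 ± 0.36 (adjusted p = 0.0135). It was spread over 29, 155 and 92 AML cells with at most 6 UMIs in one. The adjusted p became 0.128 without Control 1, 0.0665 without Control 3 and 0.111 with doublets kept. The change exceeded that in general capillary cells by 1.53 ± 0.34 (adjusted p = 0.0239), a call lost without Control 1 (0.0669) or Control 3 (0.136). The other 8 classes had log2 differences from 0.04 in venous to 1.03 in smooth muscle cells, none called. In type 2 cells it had 109 ± 17.4 and 151 ± 23.9 CPM (adjusted p = 0.0667, and 0.0461 without Control 2 or 0.0295 without AML 1), and in arterial cells 83.0 ± 14.9 and 156 ± 23.8 CPM (0.11, and 0.0476 without AML 1).

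Promoters are shown for Pnpla2, which rose in alveolar fibroblasts, and for Cd36 and Cpt1a, which passed in no class. These are the 3 of the 10 genes that matched RefSeq promoters of GRCm38.p6, from 250 bases before to 50 bases after the start, 5′ to 3′ on the strand of the gene. Lpl, Gpihbp1, Angptl4, Fabp4, Fabp5, Dgat2 and Cpt1b are named only. Capitals mark AGGTCA, a motif bound by nuclear receptors such as the PPAR factors, or its reverse complement TGACCT, and GGGCGG, the GC box, or CCGCCC. Pnpla2 is at chr7:141454938-141455237 (plus strand), Cd36 at chr5:17835847-17836146 (minus strand) and Cpt1a at chr19:3323051-3323350 (plus strand).
Pnpla2: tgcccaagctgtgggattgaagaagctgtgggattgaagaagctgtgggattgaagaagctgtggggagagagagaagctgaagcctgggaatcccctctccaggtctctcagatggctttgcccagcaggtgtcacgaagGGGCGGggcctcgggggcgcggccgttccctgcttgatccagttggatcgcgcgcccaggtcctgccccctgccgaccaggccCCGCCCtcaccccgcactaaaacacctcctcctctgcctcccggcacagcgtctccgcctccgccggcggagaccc
Cd36: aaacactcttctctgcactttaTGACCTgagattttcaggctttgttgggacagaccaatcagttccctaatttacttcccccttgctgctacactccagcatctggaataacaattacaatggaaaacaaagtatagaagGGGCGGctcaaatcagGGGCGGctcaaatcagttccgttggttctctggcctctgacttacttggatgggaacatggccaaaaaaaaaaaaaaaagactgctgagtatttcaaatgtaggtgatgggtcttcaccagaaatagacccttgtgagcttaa
Cpt1a: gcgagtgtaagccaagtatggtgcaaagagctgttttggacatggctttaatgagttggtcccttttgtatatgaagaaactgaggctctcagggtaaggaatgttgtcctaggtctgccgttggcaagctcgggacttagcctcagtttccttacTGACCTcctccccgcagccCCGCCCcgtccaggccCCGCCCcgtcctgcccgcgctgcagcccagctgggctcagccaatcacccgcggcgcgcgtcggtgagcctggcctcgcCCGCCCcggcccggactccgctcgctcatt
AGGTCA occurred 0 times in Pnpla2 and 1 time in each of the others, and the GC box 2 times in Pnpla2 and Cd36 and 3 times in Cpt1a. Of all 32851 promoters of this length, 16.3% held AGGTCA and 35.7% the GC box, on either strand, and the marked matches do not overlap. GC content was 65.3% in Pnpla2, 43.0% in Cd36 and 62.3% in Cpt1a. A match of letters is no sign of binding.

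Cpt1a, the liver form of the enzyme that passes long chain fatty acids to mitochondria, was tested in all 9 classes and called in none. It was at 83.3, 86.4 and 68.5 CPM in Control general capillary cells and 92.8, 89.6 and 104.0 CPM in AML, apart by a log2 value of 0.28 (adjusted p = 0.34). The log2 values of the classes ran from -0.93 in duct myofibroblasts to 0.57 in ciliated cells. In type 2 cells Cpt1a had 27.8 ± 3.63 and 37.1 ± 5.52 CPM, a log2 difference of 0.56 ± 0.18 (adjusted p = 0.0768, and 0.0396 without AML 1). Cpt1b, the muscle form, was in type 2 cells at 2.15, 0.563 and 1.02 CPM in Control and 4.29, 7.13 and 5.53 CPM in AML. It reached the low-count filter there in the AML libraries alone, so its call is no support for a direction. The groups did not overlap, and the log2 change was 2.34 ± 0.47 (adjusted p = 0.008693). It rested on 6, 2 and 3 UMIs in Control and 13, 19 and 23 in AML, and the adjusted p became 0.0695 without AML 2 and 0.0626 without AML 3. Its change exceeded that in general capillary cells by 3.13 ± 0.70 (adjusted p = 0.025), a call lost without any of the Control libraries or AML 3 (0.0676 to 0.146).

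The pathway around these genes was read from 6 lists of 78 other genes. Those lists too were chosen with earlier results of these data known, so their counts are a description. In each endothelial class 1 gene passed, Ucp2, a mitochondrial carrier and PPAR target, of 55 tested in general capillary, 48 in aerocytes, 29 in arterial and 47 in venous cells. It was at 880 ± 196 CPM in Control and 2279.9 ± 566 CPM in AML general capillary cells (log2 1.40, adjusted p = 0.0348), and had log2 changes of 2.26 in aerocytes (adjusted p = 0.001465), 2.27 in arterial (0.005584) and 1.48 in venous cells (0.0493). The median log2 change of the listed genes was 0.04 in general capillary cells, beside 0.004258 over all genes. None of the lipoprotein receptor, fatty acid transport, droplet, lipolysis or mitochondrial oxidation genes passed in edgeR in these classes. An unadjusted p below 0.05 was held by 11 listed genes in general capillary cells (20.7% of all genes), 8 in aerocytes (15.6%), 7 in arterial cells (11.3%) and 4 in venous cells (11.9%), and most of these counts were near the share over all genes.

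Alveolar fibroblasts had 3 listed genes higher and 1 lower of 46, where 1.38% of all genes were called higher and 2.35% lower. The acyl-CoA synthetases Acsl1 (9.29 ± 3.44 and 31.7 ± 3.73 CPM, adjusted p = 0.0241) and Acsl4 (19.9 ± 5.38 and 49.95 ± 8.72 CPM, 0.0255) rose. So did Abhd5, the coactivator of ATGL (27.6 ± 15.2 and 75.8 ± 14.6 CPM, 0.0164). Cav1, the caveolin also abundant in endothelium, fell there (167 ± 48.5 and 72.0 ± 31.5 CPM, 0.0296). It also fell in duct myofibroblasts (247 ± 46.4 and 85.4 ± 35.2 CPM, 0.0176). The endothelial genes were lower in AML in alveolar fibroblasts. In duct myofibroblasts their sum was 1156, 64.5 and 410.2 CPM in Control and 71.1, 25.5 and 39.6 CPM in AML, with Control 2 below AML 1. Whether endothelial RNA has a part in the change of Cav1 was not tested. Type 2 cells had 7 of 61 listed genes higher and none lower, where 2.05% of all genes were called higher and 2.32% lower. An unadjusted p below 0.05 was held by 24 of them, and by 20.5% of all genes. Their median log2 change was 0.25, beside -0.003183 over all genes. They include Fitm2, a lipid droplet factor (32.7 ± 7.26 and 55.1 ± 13.3 CPM, 0.0131), Mgll, monoglyceride lipase (30.9 ± 8.21 and 46.3 ± 5.29 CPM, 0.0468), Agpat3 of glycerolipid synthesis (63.0 ± 10.5 and 92.3 ± 15.2 CPM, 0.0306) and Ech1 of fatty acid oxidation (82.0 ± 15.3 and 136 ± 37.8 CPM, 0.0352). Of 42 listed genes in smooth muscle and 41 in ciliated cells none passed in edgeR, and 5 and 8 had an unadjusted p below 0.05, as 9.21% and 9.19% of all genes had.

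Some classes outside the comparison carried the genes too. Cells named as pericytes and as platelets had Lpl at 545 ± 29.0 CPM (n = 2) and 608 ± 136 CPM (n = 3) in Control. Endothelial genes summed to 5932 to 7171 CPM in pericytes. In the platelet class they summed to 6822, 7867 and 7868 CPM in Control 1, 2 and 3, where 97.5% to 100% of its cells held such a UMI. General capillary cells had 7022 to 13272 CPM. The Lpl UMIs per Gpihbp1 UMI in pericytes, 0.365 to 0.693, lay within the range of general capillary cells (0.311 to 1.14). Whether endothelial RNA has a part in the Lpl level of either class was not tested. The clusters with erythroid markers of the AML libraries had Fabp5 at 164 ± 91.1 CPM, and Lpl at 14.02 ± 2.14 and Cd36 at 7.07 ± 1.14 CPM.

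Genes whose Control level over 10 classes ran most like that of a member were listed as a description, from log2 CPM of the same libraries, so that depth and carried-over RNA are shared by all points. For Lpl they were Aplnr (Pearson r = 0.935), Mcf2l (0.932) and Shroom2 (0.929), and Aplnr is 1 of the markers that named the general capillary class. For Gpihbp1 they were Maoa (0.978), Inpp5d (0.977) and Klhl5 (0.976). For Angptl4 they were Htra3 (0.982), G0s2 (0.975) and Sod3 (0.97), for Cd36 Arhgap27 (0.971), Adgrf5 (0.966) and H2-K1 (0.964), for Fabp4 Fgl2 (0.925), Ahnak2 (0.921) and Tgfb2 (0.908), and for Fabp5 Slc39a8 (0.913), Idi1 (0.899) and Mal (0.885).

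On the mm10 build, by the GENCODE annotation, Lpl spans chromosome 8 from 68880491 to 68907448 and Gpihbp1 chromosome 15 from 75596628 to 75599481. Fabp4 (10204088 to 10208576) and Fabp5 (10012548 to 10016607) both lie on chromosome 3, on opposite strands. All 10 are annotated as protein coding.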

How the data were processed

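The 3 Control and 3 AML single-cell libraries of lung were used. Per the labels' protocols and the submitters' processing notes, the authors deposited filtered UMI counts per gene and cell. Reads were mapped to mm10 by Cell Ranger, per the submitters' processing notes, which give its version as 7.0.0, while the file headers give 6.0.1. Depth per library is given in the text, and with 3 libraries a group it limits precision for low genes.

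Cells with under 500 genes (3415) or over 15% mitochondrial UMIs (461) were removed, then the 895 highest Scrublet scores (0.8% per 1000 cells, since the automatic threshold marked 0.71%). The 10 genes were left out of the 2000 variable genes. Cells were clustered in scanpy 1.11.5 (30 components, 15 neighbours, Leiden resolution 1.0) and clusters were named from marker lists. The settings of the naming were chosen after clusters had been seen. The members, markers and pathway lists were chosen with earlier results of these data known.

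Counts were summed per class and library and tested with edgeR 4.0.16 (quasi-likelihood, TMM, filterByExpr), with R 4.3.3 and Benjamini-Hochberg adjustment over all genes of the class at 0.05. A member was called at that threshold. Differences between classes used an interaction model with library as a factor, adjusted over all genes. All p-values are two-sided. All 10 members are described, and of the pathway genes that passed, at most the 4 with the largest log2 change per class and a mean of at least 20 CPM in 1 group are named. Like genes are the 3 with the highest Pearson r of log2(mean CPM + 1) over 10 classes. Alternatives were DESeq2 1.42.0 and its size factors, no filter, a replicate block, leaving out each library, and other doublet, clustering and cell filters. On data simulated from the counts, 78% to 99% of genes changed 4-fold and 18% to 62% of those changed 2-fold were called across classes, and 0.7% to 9.7% of the calls were false, the most in general capillary cells.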

Additional observations from a re-analysis of the deposited data

Results flagged for a closer look

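These values are log2 differences between the AML change in a class and that in general capillary cells, picked out because the interaction of class and group passed at 0.05 in edgeR after adjustment over all genes. In arterial cells the difference was 1.60 for Fabp5 (adjusted p = 0.0204), 1.12 for Gpihbp1 (0.0116), 0.84 for Lpl (0.0238) and 0.83 for Cd36 (0.0307). In venous cells it was 0.52 for Cd36 (0.0158). In alveolar fibroblasts it was 1.53 for Pnpla2 (0.0239) and -3.00 for Lpl (5.665e-06). The latter passed without any 1 library at adjusted p up to 0.001249, but rested on 9 to 47 Lpl UMIs a library in fibroblasts. The Lpl change within fibroblasts lost its call without the top cell of each library or without cells with endothelial RNA. With doublets kept it reversed. In type 2 cells the difference was -1.67 for Lpl (0.009825) and 3.13 for Cpt1b (0.025), and in ciliated cells -1.17 for Lpl (0.0196). Within type 2 cells Cpt1b had reached the low-count filter in the AML libraries alone. The libraries whose removal ends the other 9 calls are named with each gene in the report.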

How the results depend on the processing

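Of the 12 called pairs of gene and class, all 12 kept their call with DESeq2 size factors, in DESeq2 (15 called in all) and without a low-count filter (21 called of 89 pairs). Leaving out 1 library gave 9 to 21 calls, the most without AML 1. The count of changes that differed from general capillary cells was 10, became 16 without the filter and 5 with cluster 4 alone as the capillary class, and ran from 3 to 16 on leaving out 1 library, with 3 without Control 3 or AML 3. Lpl in alveolar fibroblasts reversed to 0.37 with doublets kept, and the cause was not tested. Added after seeing the data, leaving out cells with RNA of another lineage gave 8 calls of 42 pairs, and leaving out the cell with most UMIs of the gene in each library gave 9 of 50. Other losses were Lpl in aerocytes with the members kept in the clustering (adjusted p = 0.0549), Pnpla2 in alveolar fibroblasts at resolution 0.5 (0.0527), Angptl4 in duct myofibroblasts with doublets kept (0.0521) or equal cells per library (0.122), and Fabp4 in arterial cells with equal cells (0.0554). Of the 46 uncalled pairs, 14 changed sign in some alternative. Libraries of the same number did not deviate together (correlations from -0.17 to 0.11), and with the replicate block 16 pairs were called, the 12 among them. The other 4 were Lpl (adjusted p = 0.009633) and Fabp5 (0.048) in venous cells, Fabp4 in general capillary cells (0.0155) and Pnpla2 in type 2 cells (0.037). Of these, Fabp4 in general capillary cells had reached the low-count filter in the AML libraries alone. In arterial cells alone every library correlated best with its own number. Depth limits Dgat2, Cpt1b and Angptl4 outside alveolar fibroblasts and smooth muscle, which rested on few UMIs.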
